A study of Homo sapiens with 27 samples.

Results

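Aminoacyl-tRNA synthetases join each amino acid to its tRNA, and human cells keep largely separate enzymes for the cytosol and for the mitochondrion. The 35 genes described here were taken by symbol from the rows of both raw count tables, 35 of 67130 rows. They comprise 19 cytosolic enzymes, whose symbols end in 1 or are FARSA and FARSB, and 16 mitochondrial enzymes, whose symbols end in 2. GARS1 and KARS1 stand with the cytosolic enzymes, although each gene is also known to give the mitochondrial form of its enzyme. The rule used symbols and no measured value, but the members and the gene lists used below were chosen with earlier results of these data known. All 35 passed the filter on low counts in every comparison.

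The RNA-seq series asks how C-terminal missense changes of ARID1A, a large DNA-binding member of BAF, the human SWI/SNF complex that moves nucleosomes, act in human cell lines. Its 27 libraries fall into 9 groups of 3, and ARID1A had been knocked out in the cells of every group. In 293T, a line from human embryonic kidney, the groups were cells stably given Flag-tagged ARID1A K2025E, G2087R, G2087E, V2084D or wild type (WT) by lentivirus, and knockout cells given no ARID1A (KO). In Huh7, a hepatocellular carcinoma line, the groups were cells given V2084D together with knockdown of STUB1, V2084D alone, and WT. STUB1, also called CHIP, is a ubiquitin ligase that works with heat shock chaperones, and no Huh7 group without added ARID1A was analysed here. The labels do not say whether a knockout was 1 clone, whether replicates were separate cultures, or what the control of the knockdown was.

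The libraries held 33429483 to 55539529 counts in 293T and 59124374 to 79915177 in Huh7. In the libraries labelled Huh7, 0 of 13 liver markers averaged 10 CPM (counts per 1e+06 counts) and AFP was at 0 in 7 of 9 libraries, whereas 5 of 6 genes known from 293 cells averaged 10 CPM or more. These 9 libraries are therefore called the libraries labelled Huh7. ARID1A stood at 290.7, 323.5 and 68170 CPM in the 3 libraries labelled 293T G2087R and at 5690, 9285 and 62920 CPM in those labelled 293T WT, against 117 to 192.8 CPM in KO cells. In the libraries labelled Huh7 it stood at 215.7 to 271.1 CPM with V2084D and at 342.2 to 399.9 CPM with WT. In a principal component analysis of 293T, K2025E replicates 2 and 3 stood apart, with -104 and -66.6 on the leading component (15.5% of the variance), whereas the other 16 libraries had -40.2 to 47.8. STUB1 stood at 67.22 to 84.12 CPM in the knockdown libraries, against 247.8 to 296.2 CPM with V2084D alone.

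Cytosolic synthetases load the tRNAs used by cytosolic ribosomes, and several of them sit together in the multi-tRNA synthetase complex. When amino acids run short or proteins misfold, kinases of the integrated stress response favour translation of ATF4, a transcription factor known to raise amino acid transporters, enzymes of amino acid synthesis and many cytosolic synthetase genes. The mitochondrial enzymes are made from nuclear genes, are imported, and serve the few proteins encoded by mitochondrial DNA. Among the cytosolic genes, 13 are known from such work as ATF4-linked (AARS1, CARS1, EPRS1, GARS1, IARS1, LARS1, MARS1, NARS1, SARS1, TARS1, VARS1, WARS1 and YARS1), and 6 are not (FARSA, FARSB, HARS1, KARS1, QARS1 and RARS1).

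Promoter windows, from 250 bases before to 50 after the start in RefSeq (GRCh38.p14), were matched for 30 of the 35 genes. They were searched on both strands for TGATGNAA, the core of the C/EBP-ATF response element that ATF4 binds with C/EBP partners. The core was present in 7 of 16 cytosolic windows (43.8%) and in 1 of 14 mitochondrial windows (7.14%), against 4.46% of the windows of 27305 genes. It was found in 7 of 10 windows of ATF4-linked genes and in 0 of 6 windows of the other cytosolic genes. The windows with the core are shown because these genes differ in how they stood with V2084D against WT, described below for the libraries labelled Huh7. Each runs 5′ to 3′ on the gene's own strand, with the match or its reverse complement in capitals.
MARS1 (chr12:57488044-57488091, plus strand): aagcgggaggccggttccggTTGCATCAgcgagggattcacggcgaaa
CARS1 (chr11:3057398-3057445, minus strand): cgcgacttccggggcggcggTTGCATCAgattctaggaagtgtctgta
IARS1 (chr9:92293683-92293730, minus strand): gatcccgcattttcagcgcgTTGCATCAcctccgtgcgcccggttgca
TARS1 (chr5:33440947-33440994, plus strand): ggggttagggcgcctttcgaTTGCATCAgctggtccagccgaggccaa
GARS1 (chr7:30594825-30594872, plus strand): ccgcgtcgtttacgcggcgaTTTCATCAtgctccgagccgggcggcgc
AARS1 (chr16:70289666-70289713, minus strand): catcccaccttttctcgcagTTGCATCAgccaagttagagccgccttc
NARS1 (chr18:57621795-57621842, minus strand): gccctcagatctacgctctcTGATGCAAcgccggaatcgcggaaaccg
YARS2 (chr12:32756067-32756114, minus strand): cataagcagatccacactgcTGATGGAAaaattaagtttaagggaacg
In 5 of the 7 cytosolic genes (MARS1, CARS1, IARS1, TARS1 and AARS1) the matched letters were TTGCATCA. The match began 187 bases before the start in AARS1, 33 before it in GARS1 and 197 before it in YARS2. In MARS1, CARS1, IARS1, TARS1 and NARS1 it lay within 14 bases of the start. The motif of NRF1, also searched on both strands, a factor known for nuclear genes of mitochondrial proteins, was present in 3 of 14 mitochondrial windows (21.4%) and 3 of 16 cytosolic windows (18.8%), against 6.98% of all windows. TARS1 held both motifs, and the matches did not overlap. No window was matched for YARS1, LARS1, VARS1, AARS2 and VARS2.

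HARS1 and HARS2, the cytosolic and mitochondrial histidine enzymes, are neighbours read in opposite directions from 1 stretch of chromosome 5. The windows of the genes share 184 bases (chr5:140691321-140691504, GRCh38.p14, plus strand), of which 61.4% are G or C. In the sequence the 84 bases between the starts (HARS1 at 140691370, read to the left, and HARS2 at 140691455, read to the right) are in capitals.
HARS1-HARS2: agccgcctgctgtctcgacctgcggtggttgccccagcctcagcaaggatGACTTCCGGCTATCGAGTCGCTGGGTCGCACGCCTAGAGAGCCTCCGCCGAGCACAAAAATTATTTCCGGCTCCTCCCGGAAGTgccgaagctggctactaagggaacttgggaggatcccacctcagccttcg
The pair is shown because its members moved in opposite directions, as given below.

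Per kb of exon, the cytosolic enzymes were the more abundant class. The median over the 27 libraries ranged from 8 to 89.7 RPKM (CPM per kb) among the 19 cytosolic genes, with a middle value of 43 RPKM. Among the 16 mitochondrial genes it ranged from 2.72 to 63.1 RPKM, with a middle value of 12.7 RPKM. FARSA, the catalytic subunit of the cytosolic phenylalanine enzyme, stood highest at 89.7 RPKM. It was followed by SARS1 (serine) at 79.5, IARS1 (isoleucine) at 71.7 and AARS1 (alanine) at 69.5 RPKM, and the libraries of these 4 overlapped. CARS2 (mitochondrial cysteine) stood lowest at 2.72 RPKM. IARS2 (mitochondrial isoleucine), at 63.1 RPKM, was more abundant than 15 of the 19 cytosolic genes. CARS1 and HARS1 were the lowest cytosolic genes. CARS1, at 8 RPKM, stood below the mitochondrial middle value of 12.7 RPKM, and HARS1, at 13 RPKM, just above it. These ranks depend on the summed length of all annotated exons, 10460 bases for CARS2, 10037 for CARS1 and 7853 for HARS1. By CPM, CARS2 averaged 26.79 in 293T WT and was not the lowest, with PARS2 at 19.11. The lowest and highest of the 27 libraries differed most for YARS1 (tyrosine), 5.42-fold, and next for TARS2 (mitochondrial threonine), 3.46-fold.

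The difference between the classes was read in each library as the mean log2 CPM of the cytosolic genes less that of the mitochondrial genes. It was 2.607 to 2.675 in the libraries labelled Huh7 with V2084D and STUB1 knockdown, 2.677 to 2.785 with V2084D alone and 2.153 to 2.195 with WT. The 18 libraries of 293T lay between 1.721, in KO replicate 3, and 2.085. Within the cytosolic class, the mean of the 13 ATF4-linked genes exceeded that of the other 6 by 1.007 to 1.113 with V2084D and STUB1 knockdown, by 1.098 to 1.253 with V2084D and by 0.3317 to 0.359 with WT in the libraries labelled Huh7. In 293T this difference was 0.2914 to 0.6365, and its lowest values, 0.298 and 0.2914, came from K2025E replicates 2 and 3. The V2084D libraries labelled Huh7, with or without the knockdown, thus stood above every other library by both measures.

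**Figure D1:**
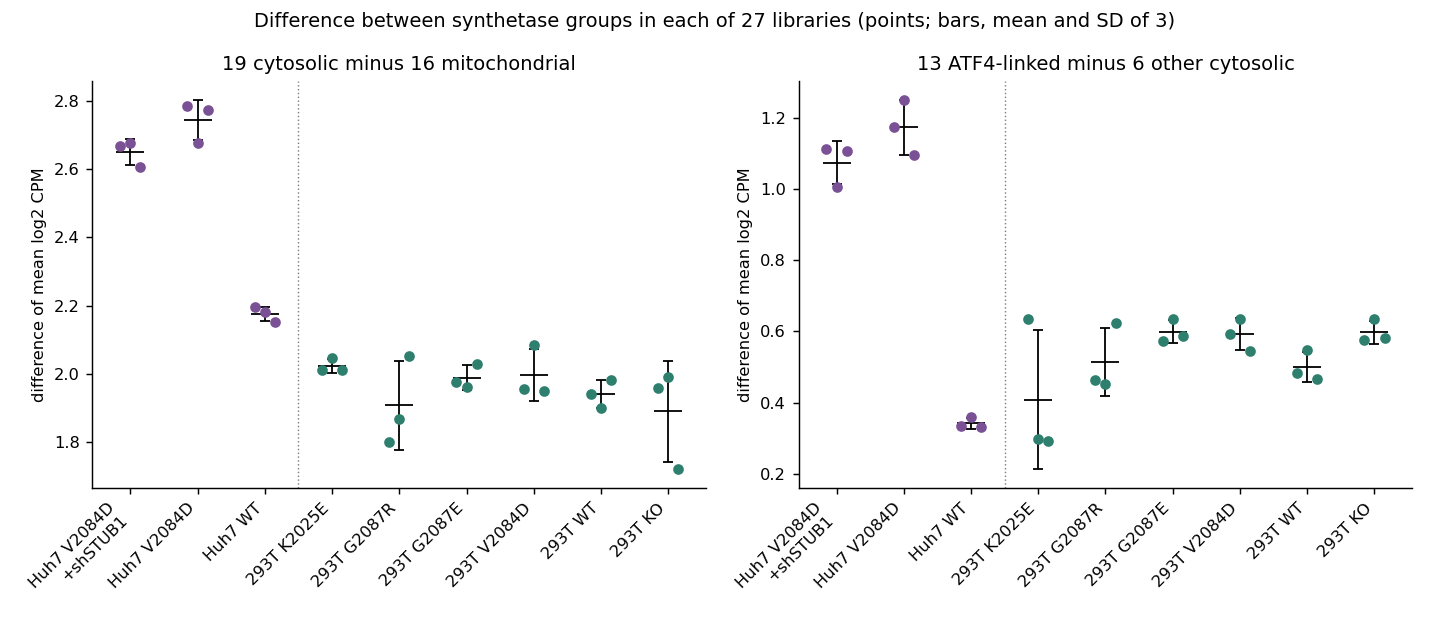
Difference of mean log2 CPM in each of the 27 libraries (points, by group; bars, mean and SD of 3), between cytosolic and mitochondrial synthetases (left) and between ATF4-linked and other cytosolic synthetases (right). The 6 V2084D libraries labelled Huh7 lie at 2.607 to 2.785 on the left and 1.007 to 1.253 on the right, above all others.

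The first comparison set V2084D against WT ARID1A in the libraries labelled Huh7. Cytosolic and mitochondrial synthetases moved largely apart: 11 cytosolic genes rose and 5 fell, while 3 mitochondrial genes rose and 8 fell. In all, 14 of 35 rose and 13 fell (edgeR quasi-likelihood test, adjusted p below 0.05 over 22510 genes). At an unadjusted p below 0.05, 28 of 35 passed, against 49.1% of all genes. Across all genes tested, 42% were called, 22% as higher and 20% as lower. The median log2 difference was 0.28 over the cytosolic genes and -0.21 over the mitochondrial genes, against 0.03 over all genes. All V2084D libraries lay above all WT libraries for 15 synthetases and below them for 14, against 28.5% and 26.9% of all genes. With the counts corrected for GC content and length, the cytosolic median was 0.13 and the mitochondrial median -0.26. In whole cultures, fewer cells of a type and less RNA per cell cannot be told apart. Nor can V2084D and another difference between the cell populations that carried it and WT.

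YARS1, the cytosolic tyrosine enzyme, changed most. It stood at 1250, 1220 and 1231 CPM with V2084D, against 358.2, 375.7 and 378.9 CPM with WT. Every V2084D library lay at more than 3 times every WT library, and the log2 difference was 1.73 ± 0.05 (SE; edgeR adjusted p = 5.71e-09). SARS1 stood at 497.3, 454.1 and 513.1 CPM with V2084D, against 220.5, 216.4 and 224.7 CPM with WT (log2 difference 1.15 ± 0.07, edgeR adjusted p = 6.87e-07). AARS1 stood at 386.1, 360.7 and 368.1 CPM with V2084D, against 198.9, 188.6 and 191.4 CPM with WT (0.95 ± 0.05, edgeR adjusted p = 6.98e-07). GARS1, the glycine enzyme, stood at 395, 407.2 and 402.1 CPM with V2084D, against 238.8, 239.6 and 226.7 CPM with WT (0.77 ± 0.05, edgeR adjusted p = 1.93e-06). In all 4 genes the groups did not overlap.

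CARS1 (cysteine) stood at 127.5, 125.3 and 121.6 CPM with V2084D, against 81.47, 82.38 and 82.29 CPM with WT. Its log2 difference was 0.61 ± 0.06 (edgeR adjusted p = 1.65e-05). FARSB, the other subunit of the cytosolic phenylalanine enzyme, stood at 203.7, 210.1 and 205.9 CPM with V2084D, against 137.9, 141.2 and 134 CPM with WT (0.59 ± 0.06, edgeR adjusted p = 1.67e-05). Its partner subunit FARSA moved the other way, at 250.1, 221.1 and 284.7 CPM with V2084D, against 319.2, 309.2 and 348 CPM with WT (-0.37 ± 0.09, edgeR adjusted p = 0.00747). The subunits of 1 enzyme thus differed in direction, with no overlap between groups in either gene. MARS1 (methionine) rose by 0.51 ± 0.05 (edgeR adjusted p = 1.82e-05), IARS1 by 0.48, EPRS1 (glutamate and proline) by 0.41, and LARS1 (leucine) by 0.28. TARS1 (threonine), at 0.17, passed, but its call was lost in 7 of 14 alternatives, and with GC and length offsets its difference was 0.0427 (edgeR adjusted p over the alternatives 0.0232 to 0.602). MARS1 shares 355 exonic bases with DDIT3 on the opposite strand. DDIT3 stood at 28.65 to 30.25 CPM with V2084D, against 8.886 to 10.87 CPM with WT. MARS1 itself stood at 373.5 to 385.5 CPM with V2084D, against 256.3 to 278.4 CPM with WT.

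The other falling cytosolic genes were HARS1, RARS1 (arginine, -0.64), QARS1 (glutamine, -0.35) and VARS1 (valine, -0.34). HARS1 stood at 88.1, 76.72 and 97.76 CPM with V2084D, against 179.9, 168.2 and 179.9 CPM with WT. The groups did not overlap, and the log2 difference was -1.01 ± 0.09 (edgeR adjusted p = 1.09e-05). KARS1 (lysine), NARS1 (asparagine) and WARS1 (tryptophan) did not pass, with differences of -0.11, -0.10 and 0.11. Of the 13 ATF4-linked genes, 10 rose and 1, VARS1, fell, with a median of 0.48. Of the other 6, 1, FARSB, rose and 4 fell, with a median of -0.36. Of the 7 genes whose products belong to the multi-tRNA synthetase complex, EPRS1, IARS1, LARS1 and MARS1 rose, QARS1 and RARS1 fell, and KARS1 was not called.

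**Figure D2:**
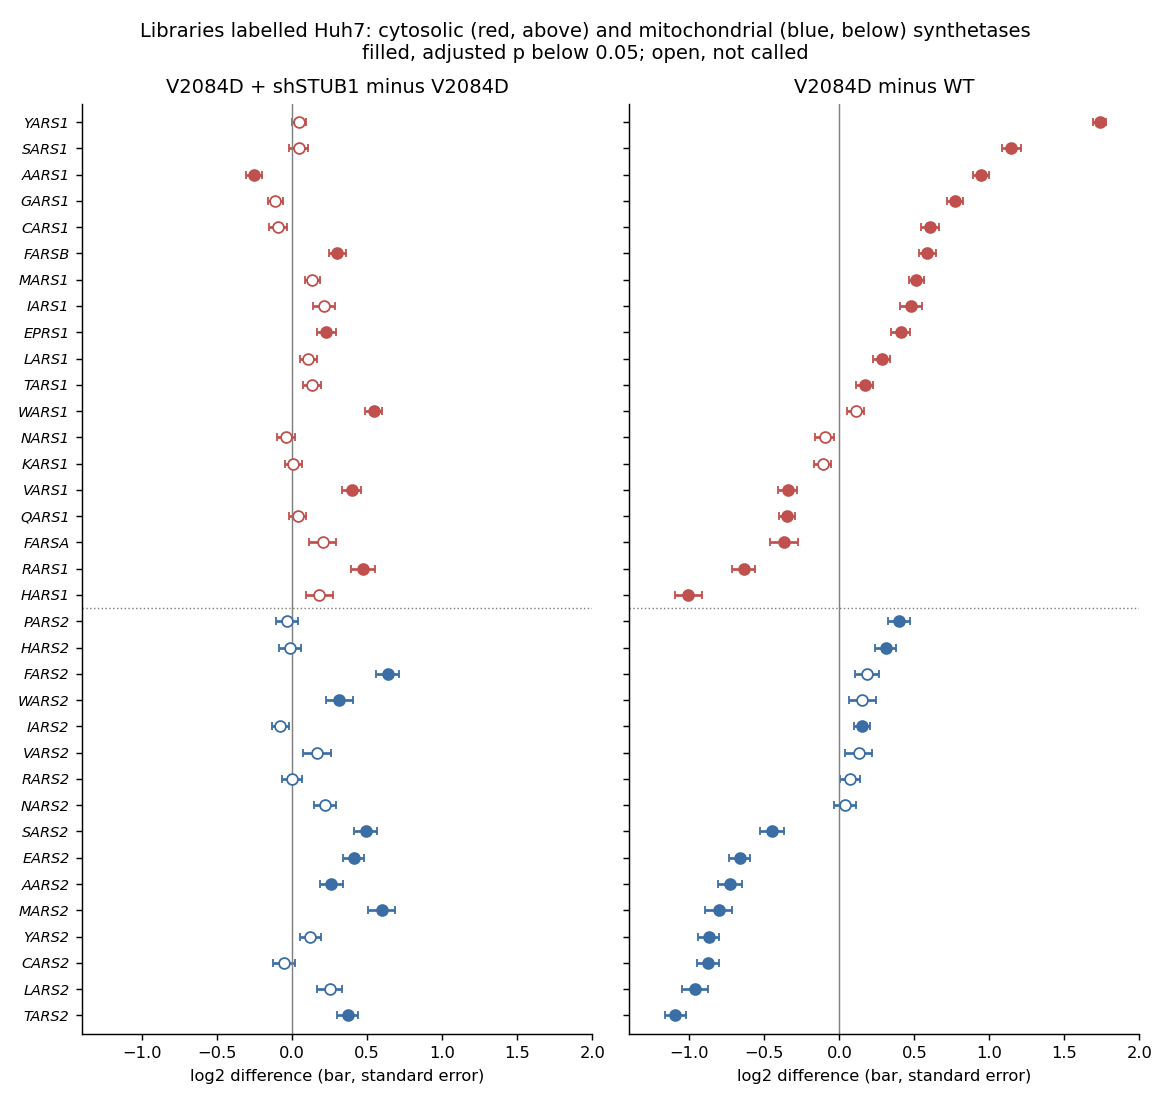
Log2 difference and standard error of the 35 synthetase genes in the libraries labelled Huh7, for V2084D with STUB1 knockdown minus V2084D (left) and V2084D minus WT (right). Cytosolic genes are red and lie above the mitochondrial ones in blue, and filled points are called. On the right, YARS1 reaches 1.73 and TARS2 -1.09, and 8 mitochondrial genes lie filled below 0.

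Most mitochondrial enzymes that changed fell. TARS2 stood at 49.92, 54.33 and 55.24 CPM with V2084D, against 113, 110.2 and 116.9 CPM with WT. Its libraries with V2084D lay at about 0.469 of the WT level, a log2 difference of -1.09 ± 0.07 (edgeR adjusted p = 1.62e-06). LARS2 (leucine) stood at 59.68, 59.28 and 52.64 CPM with V2084D, against 111.7, 109.1 and 113.2 CPM with WT (-0.96 ± 0.09, edgeR adjusted p = 1.15e-05). CARS2 stood at 25.42, 28.56 and 26.87 CPM with V2084D, against 51.37, 48.18 and 48.53 CPM with WT (-0.87 ± 0.07, edgeR adjusted p = 7.92e-06). YARS2, the mitochondrial tyrosine enzyme, stood at 35.57, 36.97 and 33.51 CPM with V2084D, against 63.71, 65.25 and 64.84 CPM with WT (-0.87 ± 0.07, edgeR adjusted p = 5.79e-06). None of these 4 genes overlapped between the groups. MARS2 (methionine, -0.80), AARS2 (alanine, -0.73), EARS2 (glutamate, -0.66) and SARS2 (serine, -0.45) also fell. Of the 3231 exonic bases of SARS2, 1492 are shared with AC011455.2 on the same strand and 349 with MRPS12 on the opposite strand. How reads in these overlaps were counted is not given in the sources used here. PARS2 (proline) rose by 0.40 and HARS2 (histidine) by 0.31. IARS2, at 0.15, passed, but its call was lost in 11 of 14 alternatives, and with GC and length offsets its difference was 0.0189 (edgeR adjusted p over the alternatives 0.0313 to 0.805). FARS2, NARS2, RARS2, VARS2 and WARS2 were not called, with differences of 0.04 to 0.18.

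For 13 amino acids both a cytosolic gene ending in 1 and a mitochondrial gene ending in 2 were measured. In 7 pairs, for alanine, cysteine, leucine, methionine, serine, threonine and tyrosine, the cytosolic gene rose and the mitochondrial gene fell. The threonine pair rests on the call of TARS1, lost in 7 of 14 alternatives, and the leucine pair on that of LARS1, lost in 1 of 14. The serine pair carries the exon overlaps of SARS2 given above. In 1 pair, histidine, the cytosolic gene fell and the mitochondrial gene rose. HARS2 stood at 58.68, 60.71 and 68.04 CPM with V2084D, against 52.57, 49.47 and 49.34 CPM with WT (log2 difference 0.31 ± 0.07, edgeR adjusted p = 0.00569). The annotated exons of HARS1 and HARS2 overlap by 437 bases on opposite strands, and the strand setting of the counting is not given in the sources used here. Reads from the overlap therefore cannot be told apart, and the genes, which share the promoter stretch printed above, moved in opposite directions. In the isoleucine pair both passed as higher, with the IARS2 call lost in 11 of 14 alternatives, in arginine and valine the cytosolic gene fell alone, and in asparagine and tryptophan neither was called.

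**Figure D3:**
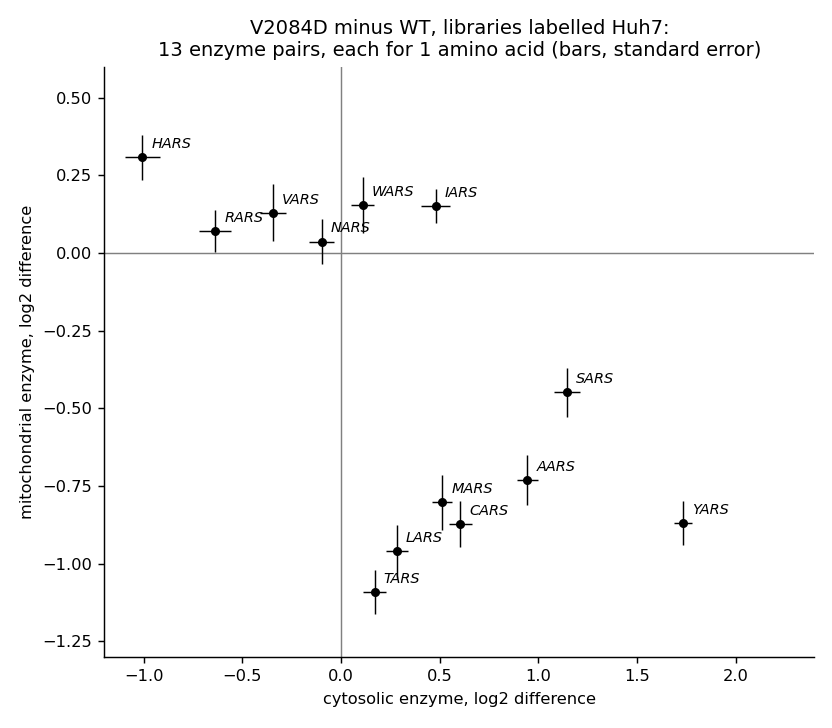
Log2 difference of V2084D minus WT in the libraries labelled Huh7 for 13 amino acids, with the cytosolic gene on the horizontal axis and the mitochondrial gene on the vertical axis (bars, standard error). The 7 pairs at lower right combine a cytosolic rise with a mitochondrial fall (TARS, at 0.17 on the horizontal axis, loses its cytosolic call in 7 of 14 alternatives), and HARS at upper left (-1.01 and 0.31) does the reverse.

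Set beside the promoters, 6 of the 7 cytosolic genes with TGATGNAA rose (AARS1, CARS1, GARS1, IARS1, MARS1 and TARS1), and NARS1 was not called. TARS1 is the gene among these 6 whose call was lost in 7 of 14 alternatives. Of the 9 cytosolic windows without it, 3 genes rose (EPRS1, FARSB and SARS1), 4 fell (FARSA, HARS1, QARS1 and RARS1) and 2 were not called. YARS2, the mitochondrial gene with the core, fell. These are counts of letters in a window and not of bound factors.

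Genes of the amino acid response mostly rose, whereas of the 19 cytosolic enzymes 11 rose and 5 fell. Of 32 genes known to respond to ATF4, 29 rose and 1 fell, with a median log2 difference of 1.31. Among all genes tested, 22% were higher and 20% lower. Whether ATF4 had a part in the synthetase differences was not tested. ASNS, asparagine synthetase and a textbook ATF4 target, averaged 867.3 ± 18.1 CPM with V2084D, against 139.4 ± 5.12 CPM with WT (SD, n = 3 each). Its log2 difference was 2.64 ± 0.06 (edgeR adjusted p = 3.93e-09). PCK2, the mitochondrial form of phosphoenolpyruvate carboxykinase, CTH, which makes cysteine, and CHAC1, which breaks down glutathione, rose by 2.80, 2.92 and 2.35. ATF5, a related transcription factor, was the gene that fell, by 1.07. ATF4 mRNA itself stood at 839.7 to 855.1 CPM with V2084D, against 701.5 to 746.2 CPM with WT. HSPA1A, a heat shock chaperone, stood at 47.95 to 58.16 CPM with V2084D, against 540.9 to 610.6 CPM with WT.

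Partners of the enzymes did not follow 1 direction. Of 17 proteins that help tRNA charging or carry charged tRNA, 4 rose and 7 fell. SEPSECS, the last enzyme of selenocysteine synthesis on its tRNA, rose by 1.14, XPOT, a tRNA exporter, by 0.56, DTD1, which removes D-amino acids from tRNA, by 0.41, and AIMP1, a scaffold of the multi-tRNA synthetase complex, by 0.32. ELAC2, which trims tRNA 3′ ends, fell by 1.25, TARS3, a threonine enzyme, by 0.81, AIMP2, another scaffold of that complex, by 0.81, and TRNT1, which adds the CCA end, by 0.90. Of 21 partners in mitochondrial translation and tRNA modification, 2 rose (TRIT1 by 0.73 and QRSL1 by 0.22) and 10 fell, with a median of -0.18. Among those that fell, PUS1, a pseudouridine synthase, fell by 1.41 and TRMU, a tRNA thiolation enzyme, fell by 0.98.

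**Figure D4:**
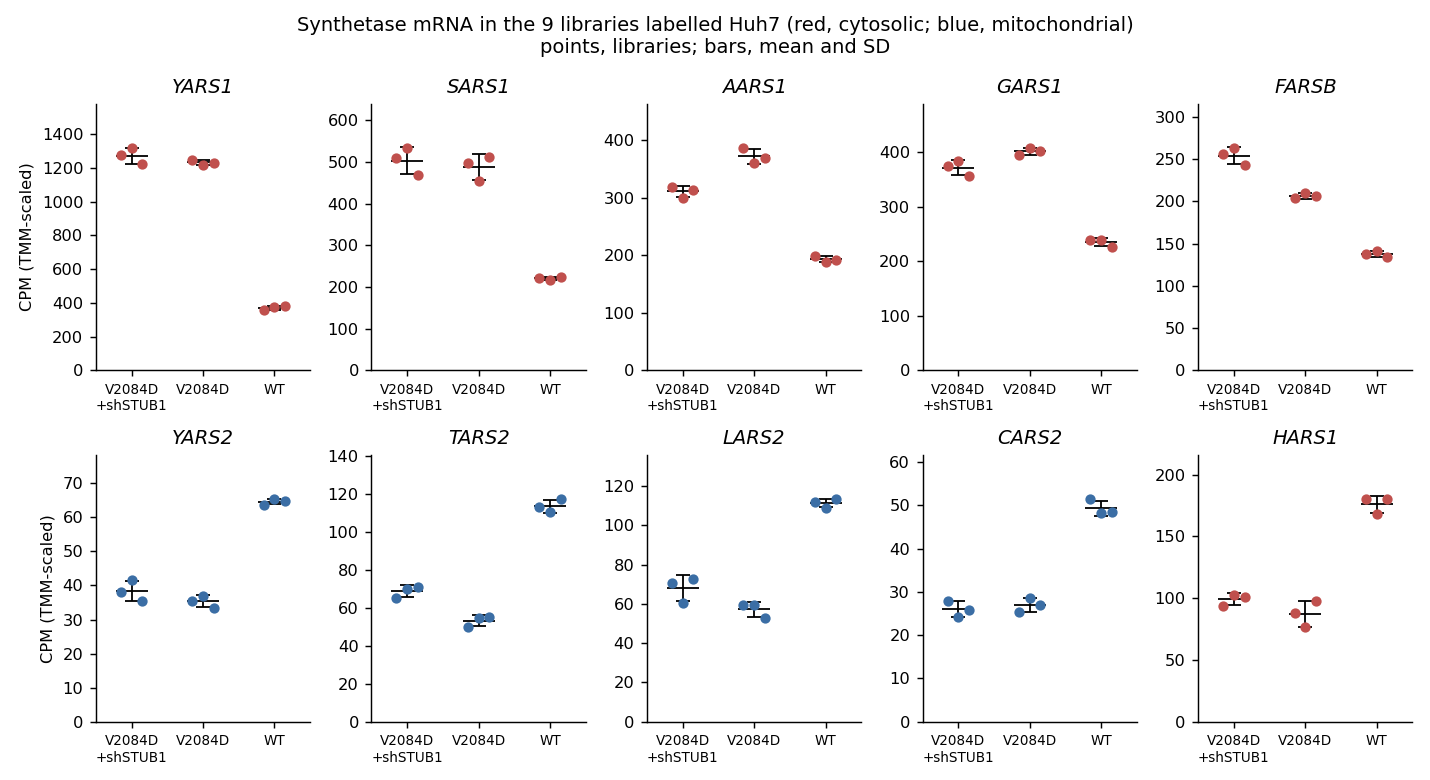
CPM of 10 synthetase genes in the 9 libraries labelled Huh7 (points; bars, mean and SD of 3), for V2084D with STUB1 knockdown, V2084D and WT. YARS1 lies at 1220 to 1250 CPM with V2084D, against 358.2 to 378.9 CPM with WT, and the knockdown libraries lie near the V2084D libraries for YARS1, SARS1, YARS2, CARS2 and HARS1.

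The second comparison set STUB1 knockdown against no knockdown in V2084D cells labelled Huh7. Synthetases changed almost entirely upwards: 12 of 35 rose and 1 fell, against 10.8% of all genes higher and 10.8% lower (21.5% called in all). Among cytosolic genes 5 rose and 1 fell, with a median of 0.13. Among mitochondrial genes 7 rose and 0 fell, with a median of 0.23, against 0.00 over all genes. All knockdown libraries lay above all libraries without it for 17 synthetases and below them for 4, against 18.3% and 18.2% of all genes. The rise thus included genes of both classes, and the test of each gene is given for those named next.

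FARS2, the mitochondrial phenylalanine enzyme, stood at 25.61, 26.3 and 25.55 CPM with knockdown, against 16.08, 16.9 and 16.88 CPM without (log2 difference 0.64 ± 0.08, edgeR adjusted p = 0.000492). MARS2 stood at 36.86, 38.81 and 37.6 CPM with knockdown, against 22.15, 28.87 and 23.82 CPM without (0.60 ± 0.09, edgeR adjusted p = 0.00132). SARS2 stood at 49.72, 43.83 and 46.27 CPM with knockdown, against 30.6, 36.61 and 32.44 CPM without (0.49 ± 0.08, edgeR adjusted p = 0.00195). In these 3 genes the groups did not overlap. The SARS2 counts carry the exon overlaps given above. Of the genes that had fallen with V2084D, MARS2, SARS2, EARS2 (0.41), TARS2 (0.37), AARS2 (0.26), RARS1 (0.47) and VARS1 (0.40) passed as higher with knockdown, AARS2 with its call lost in 6 of 14 alternatives, while YARS2, CARS2, LARS2, HARS1, FARSA and QARS1 were not called. The comparisons share the V2084D libraries, so a high or low V2084D value moves a gene in opposite directions in them.

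Among cytosolic genes WARS1 changed most, at 365.3, 347.9 and 357.3 CPM with knockdown, against 234.8, 256.4 and 244.3 CPM without. It did not overlap between groups, and the log2 difference was 0.54 ± 0.06 (edgeR adjusted p = 2.34e-04). FARSB rose by 0.30. EPRS1, at 0.23, passed, but its call was lost in 7 of 14 alternatives (edgeR adjusted p 0.00332 to 0.108). AARS1 was the gene that fell, at 319.1, 300.1 and 313.4 CPM with knockdown, against 386.1, 360.7 and 368.1 CPM without (-0.26 ± 0.05, edgeR adjusted p = 0.00687). YARS1 stood at 1277, 1318 and 1223 CPM with knockdown, against 1250, 1220 and 1231 CPM without, and SARS1 at 508.6, 533.3 and 467.8 CPM, against 497.3, 454.1 and 513.1 CPM. Both overlapped between the groups, and each had a difference of 0.04 that was not called. Of the 32 ATF4 response genes, 5 rose and 12 fell, DDIT4, an inhibitor of mTORC1 signalling, by 1.45, CHAC1 by 0.55 and ASNS by 0.42. Among the mitochondrial translation partners 10 of 21 rose and 0 fell, HSD17B10, a subunit of mitochondrial RNase P, by 1.37. Of the charging helpers 6 of 17 rose and 0 fell, AIMP2 by 0.57 and EEF1E1, another small protein of that complex, by 0.48.

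Against WT, the V2084D cells with STUB1 knockdown had 18 higher and 8 lower synthetases, with 45.1% of all genes called, 23.5% higher and 21.7% lower. With counts corrected for GC content and length the split was 17 higher and 13 lower. Of the cytosolic genes 12 rose and 2, HARS1 and QARS1, fell, with a median of 0.51. Of the mitochondrial genes 6 rose and 6 fell, with a median of 0.05. That median was -0.15 after the GC and length correction. YARS1 again changed most, at 1.78 ± 0.05 (edgeR adjusted p = 5.63e-09), and CARS2, at 24.2 to 27.85 CPM against 48.18 to 51.37 CPM with WT, was the lowest, at -0.93 ± 0.07 (edgeR adjusted p = 4.47e-06).

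In 293T, adding ARID1A to knockout cells gave no called synthetase in 4 of 5 groups. The counts were 0 of 35 for G2087R, G2087E, V2084D and WT minus KO, and 0 of 23201 genes, 0%, were called in each of these by edgeR. The uncalled genes include the added ARID1A itself. It stood at 42660 to 114800 CPM with V2084D and 43790 to 84610 CPM with G2087E, against 117 to 192.8 CPM in KO cells. These tests thus missed even a very large difference, and their 0 calls do not show that the synthetases were unchanged. At an unadjusted p below 0.05, 4 synthetases passed with G2087R, 9 with G2087E, 6 with V2084D and 8 with WT, against 4.31%, 5.66%, 4.83% and 11% of all genes. By DESeq2, 1 gene, MARS1, was called with G2087E and 0 with the other 3, out of 25 genes called in all with G2087R, 37 with G2087E, 28 with V2084D and 70 with WT. Most differences were above 0, with medians over the 35 genes of 0.15, 0.26, 0.20 and 0.20 for G2087R, G2087E, V2084D and WT, and these comparisons share their KO libraries. All 3 libraries lay above all 3 KO libraries for 11, 15, 12 and 11 of 35 genes in the same order, against 5.41%, 8.93%, 7.44% and 8.93% of all genes. They lay below all KO libraries for 0 of 35 genes, against 5.23%, 7.53%, 6.37% and 8.59% of all genes. KO replicate 3 had the lowest cytosolic mean of the 18 libraries, 7.32 log2 CPM, against 7.55 and 7.60 in KO replicates 1 and 2. Without that library the cytosolic medians were 0.0772 for G2087R, 0.178 for G2087E, 0.125 for V2084D and 0.121 for WT, against 0.144, 0.282, 0.22 and 0.208 with it, in the same order.

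SARS1 shows the size of these differences. It stood at 218.8, 227.4 and 292.3 CPM with G2087R, 280, 266.8 and 331.5 CPM with G2087E, 311.6, 261 and 300.9 CPM with V2084D and 325.8, 263.7 and 366.7 CPM with WT, against 208.6, 217.4 and 188.3 CPM in KO cells. All libraries of the 4 groups lay above all KO libraries. The log2 difference from KO was 0.51 ± 0.16 with V2084D (edgeR adjusted p = 0.967) and 0.64 ± 0.16 with WT (edgeR adjusted p = 0.343). For MARS1 with G2087E it was 0.48 ± 0.12 (edgeR adjusted p = 0.809). Simulated data with 200 changed genes give a rate for such a test, but none for the synthetases alone. Of 100 genes changed by 1 on the log2 scale in V2084D minus KO, 39 were called. Of 100 changed by 0.5, 2 were called, over 22518 genes.

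K2025E was the group with calls against KO, while K2025E minus WT, given below, had 0 of 35. Against KO, 7 synthetases were higher and 0 lower, with 12.9% of all genes called, 7.17% higher and 5.72% lower. At an unadjusted p below 0.05, 14 of 35 passed, against 28.3% of all genes. All K2025E libraries lay above all KO libraries for 16 genes and below them for 0, against 16% and 14.4% of all genes. The 5 cytosolic genes were SARS1, AARS1, FARSA, CARS1 and MARS1, and the 2 mitochondrial genes were FARS2 and TARS2. The median was 0.35 over the cytosolic and 0.12 over the mitochondrial genes, against -0.02 over all genes. SARS1 stood at 343.1, 411 and 399 CPM with K2025E, against 208.6, 217.4 and 188.3 CPM in KO cells (log2 difference 0.91 ± 0.16, edgeR adjusted p = 0.00674). AARS1 stood at 337.9, 399.5 and 362.8 CPM with K2025E, against 248.7, 254.5 and 241.3 CPM in KO cells (0.56 ± 0.12, edgeR adjusted p = 0.00955). FARS2 stood at 24.85, 34.45 and 30.43 CPM with K2025E, against 17.11, 13.54 and 17.3 CPM in KO cells (0.90 ± 0.20, edgeR adjusted p = 0.0102). FARSA stood at 203.4, 300.5 and 267.1 CPM with K2025E, against 137.4, 145.7 and 166.4 CPM in KO cells (0.78 ± 0.18, edgeR adjusted p = 0.0123). Groups did not overlap in these genes, and K2025E replicate 1 was the lowest of its group in each.

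The number of K2025E calls moved with the libraries used, for synthetases and for all genes alike. Without K2025E replicate 2, 0 synthetases and 1 of all genes were called, and without replicate 3, 2 synthetases and 618 genes, against 7 and 2989 with all libraries. Without K2025E replicate 1, which did not stand apart on the leading component, the counts rose to 10 synthetases and 5270 genes. Leaving out KO replicates 1, 2 or 3 left 3, 2 and 4 synthetases and 1078, 951 and 2342 genes. Without K2025E replicate 2, the differences of the 7 genes kept their direction: SARS1 stood at 0.828, AARS1 at 0.468, FARS2 at 0.761, FARSA at 0.621, MARS1 at 0.332, TARS2 at 0.353 and CARS1 at 0.512. ATF4 mRNA stood at 1124, 1455 and 1350 CPM with K2025E, against 753.3, 791.4 and 616.9 CPM in KO cells. Of the ATF4 response genes 6 rose and 2 fell, of the charging helpers 6 rose and 0 fell, and of the mitochondrial translation partners 5 rose and 0 fell. YARS1, the gene most changed by V2084D in the libraries labelled Huh7, stood at 342.2, 368.4 and 311.4 CPM with K2025E, against 272.2, 291.4 and 236.2 CPM in KO cells, a difference of 0.35 that was not called.

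**Figure D5:**
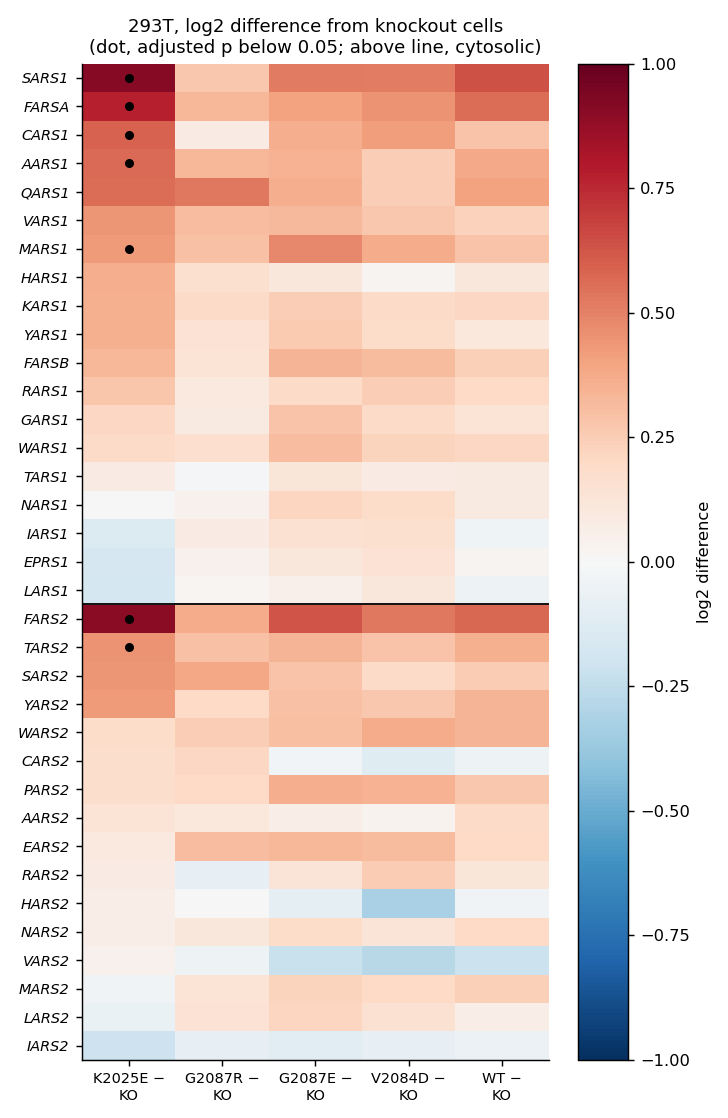
Log2 difference from KO cells of the 35 synthetase genes in 293T cells given K2025E, G2087R, G2087E, V2084D or WT ARID1A (columns, colour scale cut at 1 and -1), with cytosolic genes above the line. Dots mark the 7 calls, all in K2025E, led by SARS1 (0.91) and FARS2 (0.90).

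No synthetase was called between a mutant and WT ARID1A in 293T. The edgeR test called 0 of 35 for K2025E, G2087R, G2087E and V2084D minus WT, with 0.00431%, 0.00431%, 0% and 0% of all genes called. HSPA1A, at 1021 to 2791 CPM with V2084D against 294.2 to 416.4 CPM with WT, was among the genes edgeR did not call. The absence of calls therefore does not show that the synthetases were unchanged. DESeq2 also called 0 of 35 in each. At an unadjusted p below 0.05, SARS1 passed in G2087R minus WT, at -0.37 ± 0.16, and 0 synthetases passed in the others. The shares of all genes at that p were 8.27% for K2025E, 4.45% for G2087R, 2.05% for G2087E and 2.01% for V2084D. G2087R replicates 1 and 2, low in ARID1A, stood at 218.8 and 227.4 CPM of SARS1 and replicate 3 at 292.3 CPM, against 325.8, 263.7 and 366.7 CPM in WT cells. Without those 2 libraries G2087R is 1 library, which gives no check of these counts.

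The V2084D minus WT difference in the libraries labelled Huh7 was then set against that in 293T, with all 27 libraries in 1 fit. The difference was larger in the libraries labelled Huh7 than in 293T for YARS1, SARS1, AARS1, GARS1 and MARS1 and smaller for HARS1, LARS2, TARS2, YARS2, EARS2 and MARS2, that is 5 and 6 of 35 genes. Of all 24546 genes 9.72% were called, 5.5% as higher and 4.21% as lower. The calls of MARS1 and MARS2 were each lost in 10 of 20 alternatives. All 5 higher genes were cytosolic, and 5 of the 6 lower genes were mitochondrial. With counts corrected for GC content and length the split was 5 and 10. In 293T, YARS1 stood at 328.2, 304.7 and 273.8 CPM with V2084D, against 312.2, 297.1 and 249.3 CPM with WT, a difference of 0.08 that was not called. TARS2 stood at 144.1, 115.1 and 148.4 CPM with V2084D, against 139.7, 122.8 and 166.3 CPM with WT in 293T, a difference of -0.07. The tests of the difference gave 1.68 ± 0.15 for YARS1 (edgeR adjusted p = 2.75e-07) and -0.998 ± 0.165 for TARS2 (edgeR adjusted p = 3.65e-04). ARID1A reached 42660 to 114800 CPM in the V2084D libraries of 293T, against 215.7 to 271.1 CPM in those labelled Huh7. HSPA1A was higher with V2084D in 293T, at 1021 to 2791 CPM against 294.2 to 416.4 CPM with WT, the opposite of the libraries labelled Huh7. The part of these values in the synthetase differences was not tested. The labelled line, the count table and any batch that went with them cannot be told apart.

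With WT ARID1A in both, the libraries labelled Huh7 had 5 higher and 8 lower synthetases than 293T, with 23% of all genes called, 10.5% higher and 12.5% lower, and a median of -0.07 over all genes. The split was 9 higher and 8 lower with counts corrected for GC content and length. HARS1 stood at 21.7 RPKM in the libraries labelled Huh7, against 12.8 RPKM in 293T (log2 difference 0.76 ± 0.13, edgeR adjusted p = 1.85e-04). AARS1 stood at 41.5 RPKM in the libraries labelled Huh7, against 72.2 RPKM in 293T (-0.80 ± 0.10, edgeR adjusted p = 2.27e-06). WARS2 stood at 6.23 RPKM, against 13 RPKM in 293T (-1.06 ± 0.19, edgeR adjusted p = 2.06e-04). AARS1 and SARS1 were higher with V2084D than with WT in the libraries labelled Huh7. With WT they stood lower there than in 293T (SARS1 at 55.7 RPKM, against 83.7 RPKM in 293T, -0.59 ± 0.13, edgeR adjusted p = 0.00214). The WT libraries were unequal in ARID1A, at 342.2 to 399.9 CPM in those labelled Huh7 and 5690 to 62920 CPM in 293T.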

How the data were processed

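The authors deposited raw gene counts for 27 RNA libraries in 2 tables, 1 per cell line, with reads placed on GRCh38, per the submitters' processing notes, which also name edgeR. The aligner, counter, strand setting and annotation are not given in the sources used here. Counts were tested with edgeR 4.0.16 (R 4.3.3, limma 3.58.1) by the quasi-likelihood test with TMM scaling, after filterByExpr (minimum count 10, total 15), in 1 fit per line (23201 genes in 293T, 22510 in Huh7) and 1 joint fit of 24546 genes. Adjusted p-values are Benjamini-Hochberg over all genes of a fit, with a threshold of 0.05, in 14 comparisons. The SE of a log2 difference was taken as its size over the root of the F statistic. CPM were scaled by TMM, log2 CPM used a prior count of 2, and RPKM the summed exon length of each gene. DESeq2 1.42.0 was an alternative. Fits were tested on simulated data.

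The members and gene lists were chosen with earlier results of these data known. All 35 members could be named. Full statistics went to at most 8 per direction, and other lists gave at most 4 per direction, by adjusted p. Nothing states that replicates were separate cultures, so the p-values rest on a spread among libraries that may be technical. Same-numbered replicates deviated together most clearly in 1 comparison, 293T G2087R minus WT (correlations 0.132, 0.178 and 0.315), where the replicate block changed no call. Other 293T comparisons were weaker or uneven, with 0.0257, 0.142 and 0.28 in V2084D minus KO, 0.0949, 0.0697 and 0.225 in G2087E minus WT and -0.153, 0.0654 and 0.148 in K2025E minus WT.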

Additional observations from a re-analysis of the deposited data

Results flagged for a closer look

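The V2084D minus WT difference differed between the libraries labelled Huh7 and 293T for 11 synthetases by the edgeR test of the difference itself. On the log2 scale, Huh7 minus 293T, it was 1.68 for YARS1, 1.3 for SARS1, 1.1 for AARS1, 0.744 for GARS1 and 0.45 for MARS1. It was -1.03 for LARS2, -0.998 for TARS2, -0.908 for HARS1, -0.778 for YARS2, -0.762 for EARS2 and -0.741 for MARS2. The calls of MARS1 (0.369 to 0.49, edgeR adjusted p 0.00204 to 0.0929) and MARS2 (-0.865 to -0.658, edgeR adjusted p 0.00577 to 0.0974) were each lost in 10 of 20 alternatives. The labelled line, the count table and any batch that went with them cannot be told apart here.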

How the results depend on the processing

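The K2025E minus KO calls depended most on the processing: 7 synthetases of 2989 genes were called, against 4 of 2112 with no filter on low counts, 1 of 436 with the compared groups alone, 11 of 4527 by DESeq2 and 13 of 4778 with GC and length offsets and the replicate block. Without K2025E replicates 2 and 3 the count was 0 of 1, with a K2025E arm of 1 library whose spread is taken from the other groups, so this 0 says nothing on stability. Leaving out 1 library at a time gave 0 to 10 calls there, 25 to 26 in Huh7 V2084D minus WT, 10 to 15 in STUB1 knockdown minus V2084D, 25 to 27 in knockdown minus WT, 8 to 12 in Huh7 WT minus 293T WT, 9 to 12 for the difference between lines and 0 to 0 in the other 293T comparisons. In Huh7 WT minus 293T WT the count was 8 without 293T WT replicate 3 or Huh7 WT replicate 1, against 13. DESeq2 called 1 synthetase of 37 genes in G2087E minus KO. Without G2087R replicates 1 and 2, an alternative chosen after seeing the data that leaves 1 library in that arm and assumes it varies like the other groups, QARS1 stood at -0.0524 in G2087R minus KO, against 0.52, and CARS2 at -0.148 in G2087R minus WT, against 0.27, with none of these called. The causes were not tested. Calls held under every alternative run for 24 of 27 genes in Huh7 V2084D minus WT (not LARS1, TARS1 and IARS2), 10 of 13 in knockdown minus V2084D (not EPRS1, AARS2 and WARS2), 22 of 26 in knockdown minus WT (not TARS1, NARS2, VARS2 and WARS2), 9 of 11 for the difference between lines (not MARS1 and MARS2), 8 of 13 in Huh7 WT minus 293T WT and 0 of 7 in K2025E minus KO. With the replicate block the counts were 9 in K2025E minus KO, 26 in Huh7 V2084D minus WT, 11 and 26 in the knockdown comparisons, 9 in Huh7 WT minus 293T WT, 12 for the difference between lines and 0 elsewhere. Outside G2087R minus WT, same-numbered replicates deviated together less or unevenly, and their labels share only a number. Simulated log2 differences of 0.5 were called for 2 of 100 genes in 293T V2084D minus KO and 24 of 100 in Huh7 V2084D minus WT. Each simulation changed 200 genes, whereas 9443 of 22510 genes were called in the measured Huh7 comparison. The adjusted p threshold is stricter when few genes change, so the simulated Huh7 rate does not carry over to it.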
